A study of Mus musculus with 4 samples.

Results

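Villus-top enterocytes are the absorptive cells at the tip of the intestinal villus, and 877 of the 22679 barcodes of 4 mouse jejunum libraries were assigned to them. A barcode was a member when at most 10% of its unique molecular identifiers (UMIs, 1 per captured RNA molecule) lay on mitochondrial genes, when it held at least 1 UMI of Epcam, when at least 3 of the 6 genes Nt5e, Ada, Slc28a2, Ly6m, Clca4a and Slc23a4 had 2 or more UMIs each, and when fewer than 3 of the 6 cell cycle genes Mki67, Top2a, Birc5, Ube2c, Cdc20 and Cdca3 had a UMI. The mitochondrial limit left 5876 kept cells, of which 3498 held an Epcam UMI. Members thus made up 14.9% of the kept cells and 25.1% of the Epcam-positive ones. Members were thus chosen by the measured counts of these genes, and every difference between members and other cells is given as a description without a test.

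The study asked how the loss of the transcription factors Foxc1 and Foxc2 in endothelial cells affects the intestine after ischemia and reperfusion (I/R), in which the superior mesenteric artery is clamped and then released. Controls were 2 adult male Foxc1fl/fl;Foxc2fl/fl mice without Cre, and EC-Foxc-DKO mice were 2 adult male Cdh5-CreERT2;Foxc1fl/fl;Foxc2fl/fl mice, in which tamoxifen activates Cre in blood and lymphatic endothelial cells. All 4 mice were given tamoxifen by mouth and underwent I/R, and their distal jejuna were digested to single cells 18.5 h later, 1 library per mouse. The design holds no uninjured mouse, and the deletion is driven in endothelium and not in the epithelium, so that enterocytes of both groups carry the same floxed alleles.

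Enterocytes are born in crypts, climb the villus while they change their gene program, and are shed at its tip. Cells of the lower villus make antimicrobial lectins, those of the middle take up sugars, peptides and amino acids, and those of the tip express genes of lipoprotein assembly, cell adhesion and the conversion of extracellular nucleotides to adenosine and inosine. The tip is also the part of the mucosa farthest from the arterial supply, and it is lost first when blood flow stops.

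The rule genes read as follows in the annotation of the genome build of the files (mm10, GENCODE M21). Nt5e (chr9:88327197-88372092, plus strand) encodes the ecto-enzyme CD73 that turns AMP into adenosine, Ada (chr2:163726584-163750239, minus strand) encodes adenosine deaminase, and Slc28a2 (chr2:122426477-122461137, plus strand) encodes a sodium-coupled transporter of purine nucleosides. Slc23a4 (chr6:34945278-34988404, minus strand) belongs to the nucleobase and ascorbate transporter family, Clca4a (chr3:144952480-144975045, minus strand) to the calcium-activated chloride channel regulators, and Ly6m (chr15:74876987-74897021, minus strand) to the Ly6 family of surface proteins. All 6 are protein-coding genes, and their 3′ tag counts do not grow with transcript length.

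Levels are given as CPM, the count of a gene divided by the summed count of all genes over the members of a mouse and scaled to the usual base of CPM, and in the order control replicate 1, control replicate 2, EC-Foxc-DKO replicate 1 and EC-Foxc-DKO replicate 2. Ada stood at 5801, 4411, 7128 and 1427 CPM and Nt5e at 933, 1091, 1042 and 95.5 CPM. Slc28a2 stood at 651, 765, 705 and 256 CPM and Slc23a4 at 352, 438, 428 and 118 CPM. For these 4 genes EC-Foxc-DKO replicate 2 lay well below the other 3 mice. Ly6m, at 1771, 2406, 2102 and 1467 CPM, was lowest there by a smaller margin, and Clca4a, at 2559, 4327, 2912 and 3274 CPM, was lowest in control replicate 1. At least 2 UMIs of Nt5e were present in 76.3, 85.7, 70.9 and 28.1% of the members, whereas at least 2 UMIs of Clca4a were present in 97.1, 100.0, 96.8 and 98.8%. The share with Nt5e was lowest in EC-Foxc-DKO replicate 2.

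Members were compared with a list of enterocyte identity, of which the rule used Epcam. All 16 genes of this list were detected in the members, with a summed level of 94825, 112226, 101801 and 107037 CPM. Among them were the villin gene Vil1, the keratin genes Krt8, Krt18 and Krt20 and the alkaline phosphatase gene Alpi. Markers of other cell types were detected too, as given below, so detection alone is no check of the label. The list also does not tell the villus top from other enterocytes. The 6 cell cycle genes together reached 6.06, 0, 9.02 and 7.30 CPM, a level that the rule itself kept low. Lgr5 and Olfm4, which mark crypt stem cells and which the rule did not use, reached 0.0905, 0, 1.00 and 0 CPM and 0.181, 0, 15.8 and 0.684 CPM. Foxc1 and Foxc2 had no UMI in the members of any mouse, and Cre had 1 UMI in EC-Foxc-DKO replicate 2 and none in the other 3 mice. The deletion was made in endothelial cells, so these counts do not check it.

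The 4 libraries held 72046346, 15557181, 64781444 and 38750638 UMIs in 6623, 3623, 7347 and 5086 barcodes. Members numbered 452, 7, 247 and 171, with 11054994, 107230, 4991675 and 4385587 UMIs in all and a median of 17858.5, 14361, 16794 and 22312 UMIs per cell. In control replicate 2, 1 UMI was thus worth much more than in the other mice, and a count of 3 UMIs corresponded to 28.0 CPM, compared with 0.271, 0.601 and 0.684 CPM in control replicate 1 and the EC-Foxc-DKO mice. A gene listed at 0 in that mouse is a gene below about 28.0 CPM in 7 cells.

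Members formed 29.4% (95% exact binomial interval 27.1 to 31.7%) of the kept cells of control replicate 1 and 1.81% (0.732 to 3.70%) of those of control replicate 2. They formed 8.70% (7.69 to 9.80%) in EC-Foxc-DKO replicate 1 and 15.4% (13.3 to 17.6%) in EC-Foxc-DKO replicate 2. The controls thus held both the highest and the lowest share, and the EC-Foxc-DKO mice lay between them. The mean share was 12.03% in EC-Foxc-DKO mice and 15.6% in controls, a difference of -3.56 percentage points against a pooled SD of 14.2 points (n = 2 mice per group; exact two-sided permutation test, p = 1.0, smallest possible p = 0.3333). The intervals cover counting error only. Of the Epcam-positive kept cells, members formed 37.2, 4.40, 19.2 and 20.5%, and the difference between the group means was -0.99 points. The median mitochondrial share over all barcodes was 22.9, 46.7, 14.3 and 25.1%, so that the limit removed unequal parts of the libraries. Barcodes that met every other term of the rule numbered 2084, 300, 1946 and 995 with no mitochondrial limit. Without the limit their share of all barcodes was 31.5, 8.28, 26.5 and 19.6%, and the difference between the group means was 3.15 points, with EC-Foxc-DKO mice higher.

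**Figure D1:**
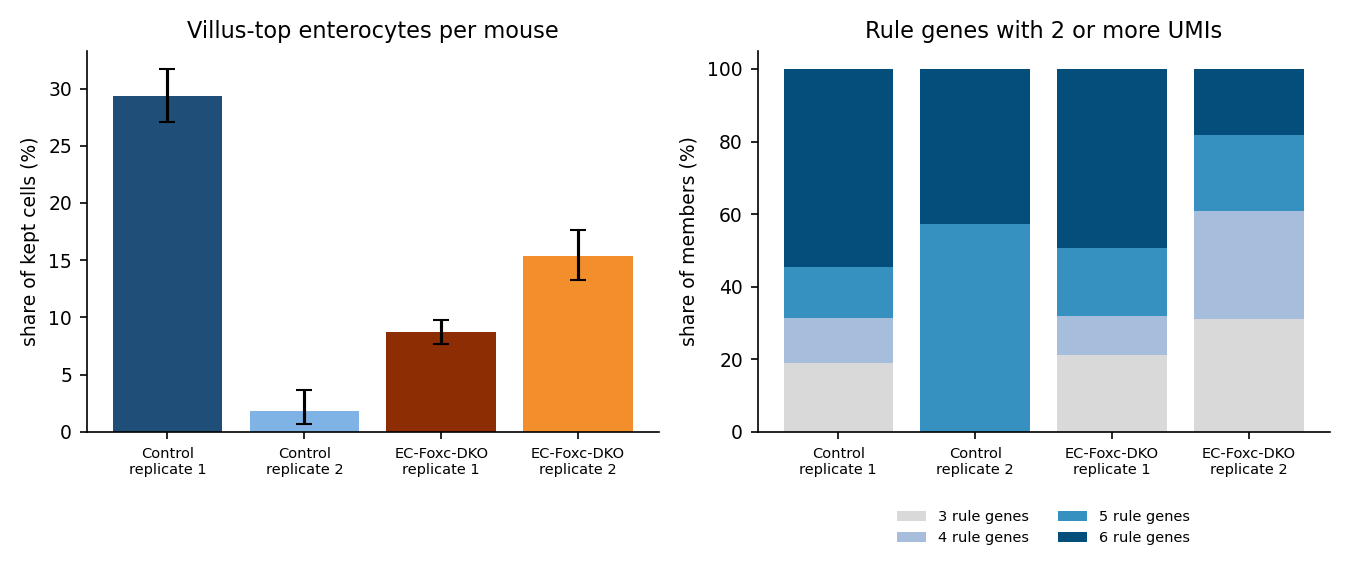
Left, villus-top enterocytes as a percentage of kept cells in each mouse, with exact 95% binomial intervals; right, members of each mouse by how many of the 6 rule genes had 2 or more UMIs, as a percentage of members. The share ranged from 1.81% to 29.4% within the controls, and 18.1% of the members of EC-Foxc-DKO replicate 2 held all 6 rule genes, compared with 42.9 to 54.6% in the other mice.

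Members with exactly 3 rule genes, just inside the rule, numbered 86, 0, 52 and 53, and cells with 2 rule genes that met its other terms, just outside, numbered 182, 2, 120 and 41. In control replicate 1 and the EC-Foxc-DKO mice, Apoa4 stood at 13628, 23879 and 19033 CPM just inside and at 9875, 9099.6 and 14145 CPM just outside. The level was higher just inside the rule than just outside it in each of these 3 mice. Of the 877 members, 54 were among the 305 kept cells with the highest Scrublet doublet scores. Barcodes shared by 2 libraries numbered 51, and 4 members carried 1 of them.

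A pair of libraries stood apart in their members. Control replicate 2 contributed 7 members, as described above. EC-Foxc-DKO replicate 2 also differed in its profile: over 2463 genes of at least 50 mean CPM, the log2 levels of the first control mouse and EC-Foxc-DKO replicate 1 correlated across genes at r = 0.956, while EC-Foxc-DKO replicate 2 correlated with these mice at 0.858 and 0.850. The 7 members of control replicate 2 correlated with the same mice at 0.735 and 0.749 and with EC-Foxc-DKO replicate 2 at 0.595. In cells of a mid-villus gate, defined below, control replicate 2 correlated with control replicate 1 and EC-Foxc-DKO replicate 1 at 0.964 and 0.968. EC-Foxc-DKO replicate 2 correlated with these mice at 0.945 and 0.946 there. Genes are not independent replicates, and these values are a description. Signs of RNA quality differed too: the nuclear RNA Malat1 made up 2.45, 3.35, 2.39 and 0.726% of the members' UMIs, and Gm42418, which overlaps ribosomal RNA sequence, made up 1.66, 1.41, 1.30 and 0.173%. Mitochondrial genes made up 7.63, 8.54, 7.28 and 6.10%, and genes of cytosolic ribosomal proteins 3.68, 1.07, 3.70 and 3.85%. In the mid-villus cells of the same libraries, Malat1 made up 0.583, 0.639, 0.627 and 0.425%. Gm42418 made up 1.13, 0.847, 0.701 and 0.180% of the mid-villus UMIs. EC-Foxc-DKO replicate 2 was lowest in both transcripts in both zones. The part of these differences in the results below was not tested.

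Markers of other cell types were present in some members. At least 2 markers of another type with 2 or more UMIs each were found in 147, 0, 98 and 37 members, 32.2% of all. Goblet cell genes accounted for most of them, in 133, 0, 75 and 19 members. The 7 goblet genes Muc2, Tff3, Zg16, Fcgbp, Clca1, Agr2 and Spink4 summed to 4116, 56.0, 25883 and 7405 CPM, with Zg16 the most abundant at 1864, 18.7, 12942 and 4209 CPM, and 8, 0, 23 and 6 members in which these genes took at least 5% of the UMIs held 86.8, 0.0, 98.7 and 90.9% of the goblet UMIs. Enteroendocrine genes were found in 18, 0, 8 and 15 members and summed to 1889.7, 65.3, 867 and 325 CPM, with Sct, the secretin gene, highest on average. Pan-leukocyte genes summed to 7.24, 0, 121 and 7.52 CPM, with Cd52 highest on average, and B and plasma cell genes to 3.08, 0, 93.0 and 2.74 CPM, with Cd79a highest on average. Myeloid genes summed to 132, 0, 156 and 72.7 CPM, with S100a9 most abundant in control replicate 1 and EC-Foxc-DKO replicate 2 and Lyz2, at 73.3 CPM, in EC-Foxc-DKO replicate 1. T cell genes summed to 1.54, 0, 22.4 and 9.58 CPM, with Cd3g highest on average, and Paneth cell genes to 13.7, 0, 93.0 and 374 CPM, led by Defa24. Tuft cell genes summed to 103, 0, 93.2 and 32.8 CPM, with Trpm5 most abundant. Endothelial genes stayed at 4.34, 0, 4.81 and 4.33 CPM, erythroid genes at 8.77, 0, 1.80 and 5.24 CPM, with Alas2 at 0 in every mouse, stromal, muscle and glial genes at 2.71, 0, 72.1 and 1.82 CPM, with Dcn highest on average, and crypt stem cell genes at 3.35, 0, 25.4 and 1.60 CPM.

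Genes of lipid uptake and export were among the most abundant in the members. Apoa4, which encodes an apolipoprotein of chylomicrons, stood at 36361, 49333, 40827 and 25264 CPM and Apoa1, the main apolipoprotein of high-density lipoprotein, at 34839, 52271, 37139 and 25318 CPM. Fabp2, the intestinal fatty acid binding protein gene, stood at 21867, 24368, 30976 and 28511 CPM and Rbp2, which encodes the carrier of retinol in enterocytes, at 14331, 15555, 15306 and 23895 CPM. The other genes among the 10 most abundant were Malat1, Actb and the mitochondrial genes mt-Co1, mt-Co2, mt-Co3 and mt-Atp6. Apoa4 and Apoa1 were highest in control replicate 2 and lowest in EC-Foxc-DKO replicate 2, and the groups overlapped in both.

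To place the members along the villus, they were compared with a mid-villus gate of 460, 40, 320 and 366 cells. Those held 2 or more UMIs in at least 3 of the 6 genes Slc5a1, Slc2a2, Slc15a1, Slc7a9, Leap2 and Guca2b. Members and cycling cells were left out of it, but cells with the lower-villus genes Reg3b, Reg3g, Nlrp6, Il18, Lypd8 and Ccl25 were not. These genes summed to 27251, 37151, 35501 and 85964.5 CPM in the gate. It may thus hold cells of the lower villus too and is no pure middle. Mid-villus cells held a median of 32537, 32314, 29882 and 23629 UMIs per cell. Genes of cytosolic ribosomal proteins made up 6.79, 9.13, 7.29 and 6.28% of their UMIs. Both measures were above those of the members in each mouse, and their part in the zone differences was not tested. Of 2960 genes with at least 50 mean CPM in either zone, 957 were higher in the members in every mouse (32.3%) and 1268 were lower in every mouse (42.8%). Markers of other cell types differed too. In mid-villus cells goblet genes summed to 318, 38.7, 1085 and 1258 CPM and enteroendocrine genes to 139, 41.9, 142 and 115 CPM. Both sums were below those of the members in each mouse, but the goblet sum of the members of control replicate 2 rests on 6 UMIs. Endothelial genes, at 6.26, 5.65, 6.35 and 4.99 CPM in mid-villus cells, were lower in the members. Apart from the rule genes, the genes with the largest median log2 ratio of members to mid-villus cells over the 4 mice were Lama3, Gm14085, Cldn4 and Sprr1a. Lama3, a laminin chain of the basement membrane, stood at 291, 382, 258 and 136 CPM in the members and 5.18, 1.61, 3.22 and 3.85 CPM in mid-villus cells, a median log2 ratio of 5.75. Cldn4, a tight junction claudin, stood at 484, 1166, 437 and 632 CPM in the members and 12.2, 0.807, 9.67 and 25.8 CPM in mid-villus cells, a ratio of 5.28. Sprr1a, a small proline-rich protein gene of stressed epithelia, stood at 158, 93.3, 47.7 and 340.2 CPM against 2.43, 0.807, 1.07 and 11.8 CPM, a ratio of 5.14, and was highest in EC-Foxc-DKO replicate 2 in both zones. A gate set for the villus bottom held only 13, 14, 17 and 52 cells, whose goblet genes summed to 349463, 23939, 216887 and 70837 CPM and whose own 6 gate genes summed to less than in mid-villus cells in each mouse, so that its name did not hold and it was not used as a zone. In those cells Cldn4 stood at 542, 70.5, 298 and 336 CPM and Sprr1a at 171, 10.8, 3.87 and 479.5 CPM, above the members in control replicate 1 for both genes and in EC-Foxc-DKO replicate 2 for Sprr1a.

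The genes that were lowest in the members relative to mid-villus cells were Ppp1r1b, Aldh1b1, Rdh7, Slc5a11, Maob, Slc26a3, Pigr, Ppargc1a, Oat and Ugt2a3. Pigr, the receptor that carries IgA across the epithelium, stood at 823, 74.6, 348 and 68.6 CPM in the members and 1932, 1571, 1412 and 648 CPM in mid-villus cells, a median log2 ratio of -2.62. Slc26a3, an apical chloride and bicarbonate exchanger, stood at 44.2, 0, 22.8 and 12.8 CPM against 137, 116, 119 and 129.9 CPM, a ratio of -2.79. Ppp1r1b had the lowest ratio, -3.25, at 35.5, 0, 30.9 and 4.10 CPM in the members and 98.9, 145, 117 and 124 CPM in mid-villus cells. Several of these genes were at 0 among the 7 members of control replicate 2, where the ratio depends on the added count of 1 CPM.

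The counts of each list are to be read beside these shares of all genes, 32.3% higher and 42.8% lower in the members in every mouse. Of the 22 apolipoprotein and chylomicron genes with at least 50 mean CPM in either zone, 11 were higher in the members in every mouse and 6 lower in every mouse, and the summed level of the list was 131833, 164991, 146024 and 123956 CPM against 103616, 74853, 107066 and 97194 CPM in mid-villus cells. Apob, the structural protein of chylomicrons, stood at 7603, 10678, 7500.1 and 2618 CPM against 2007, 1224, 1865 and 1346 CPM, whereas Fabp1, the liver-type fatty acid binding protein, stood at 9831, 2984, 7045 and 18668 CPM against 19073, 17361, 18568 and 19016 CPM. Of 27 genes of the brush border and of adhesion, 19 were higher and 2 lower in every mouse, led by Krt20 at 3749.9, 4364, 3685 and 5438 CPM, the claudin gene Cldn7 at 2679, 4644, 2855 and 2231 CPM and the protocadherin gene Cdhr5 at 1812, 2359, 1775 and 1071 CPM. Egfr, the epidermal growth factor receptor, stood at 72.4, 46.6, 48.1 and 55.4 CPM in the members and at 4.86, 3.23, 3.81 and 3.64 CPM in mid-villus cells.

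Of 13 genes of purine breakdown and nucleoside transport other than the rule genes Nt5e, Ada and Slc28a2, 4 were higher and 2 lower in every mouse. All 24 genes of that list, those under 50 mean CPM included, summed to 3713, 3796, 3781 and 3342 CPM against 3266, 2945, 3161 and 2735 CPM. Enpp3, an ecto-enzyme that splits extracellular nucleotides and that the rule did not use, stood at 859, 1408, 1161 and 251 CPM in the members and 74.3, 70.2, 113 and 38.4 CPM in mid-villus cells. Of 19 brush border hydrolases, 2 were higher and 12 lower in every mouse. The sucrase-isomaltase gene Sis stood at 919, 252, 772 and 391 CPM against 2300.1, 3125, 2695 and 2695 CPM, while Alpi stood at 1139, 1109.8, 1268 and 1032 CPM against 426, 253, 422 and 412 CPM and Dnpep, an aspartyl aminopeptidase, at 921, 1977, 1376 and 197 CPM against 177, 106, 189.9 and 138 CPM. Of 11 transporters of sugars, peptides and amino acids other than the gate genes Slc5a1, Slc2a2, Slc15a1 and Slc7a9, 1 was higher and 8 were lower in every mouse. Slc6a19, a transporter of neutral amino acids, stood at 646, 765, 694 and 332 CPM against 421, 193, 419 and 495 CPM. The glucose transporter Slc5a1, at 521, 279.8, 564 and 249.7 CPM against 1139, 1396, 1369.6 and 1275 CPM, was among the genes that chose the mid-villus cells.

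Of 11 antimicrobial and acute-phase genes, 0 were higher and 9 lower in the members in every mouse. Reg3b, an antibacterial C-type lectin, stood at 5978, 2891, 5746 and 22044 CPM in the members and at 17119, 22679, 23349 and 55139 CPM in mid-villus cells. The related lectin Reg3g stood at 2306, 1287, 2802 and 8045 CPM against 6542, 10441, 8705 and 25726 CPM. Of 20 genes of interferon and antigen presentation, 11 were higher and 5 lower, and of 17 genes of cell death and shedding, 10 were higher and 5 lower. Of 16 immediate early and AP-1 genes, 11 were higher and 1 lower, led by Jun at 1413, 1389.5, 1387 and 568 CPM against 643, 508, 629.9 and 338 CPM, and of 14 injury-state genes, 11 were higher and 0 lower. Of 9 heat shock genes 1 was higher and 7 were lower, and of 14 genes of endoplasmic reticulum stress 2 were higher and 11 lower. Xenobiotic enzymes were lower in 16 and higher in 2 of 25, peroxisome and fat oxidation genes lower in 8 and higher in 0 of 12, metallothionein and antioxidant genes lower in 11 and higher in 2 of 18, and retinoid genes lower in 4 and higher in 0 of 5. Bile acid, sterol and iron genes were lower in 4 and higher in 2 of 12, and glycolysis genes lower in 0 and higher in 4 of 15. Among transcription factors, 7 of 18 were higher and 8 lower. Klf4, a factor of differentiated epithelium, stood at 838, 886, 813 and 581 CPM against 269, 132, 236 and 302 CPM, Creb3l3, a regulator of apolipoprotein genes, at 1278, 1287, 1138 and 808 CPM against 652, 429, 571 and 414 CPM, and Hnf4a at 419, 354, 398 and 267 CPM against 173, 138, 154 and 169.6 CPM.

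**Figure D2:**
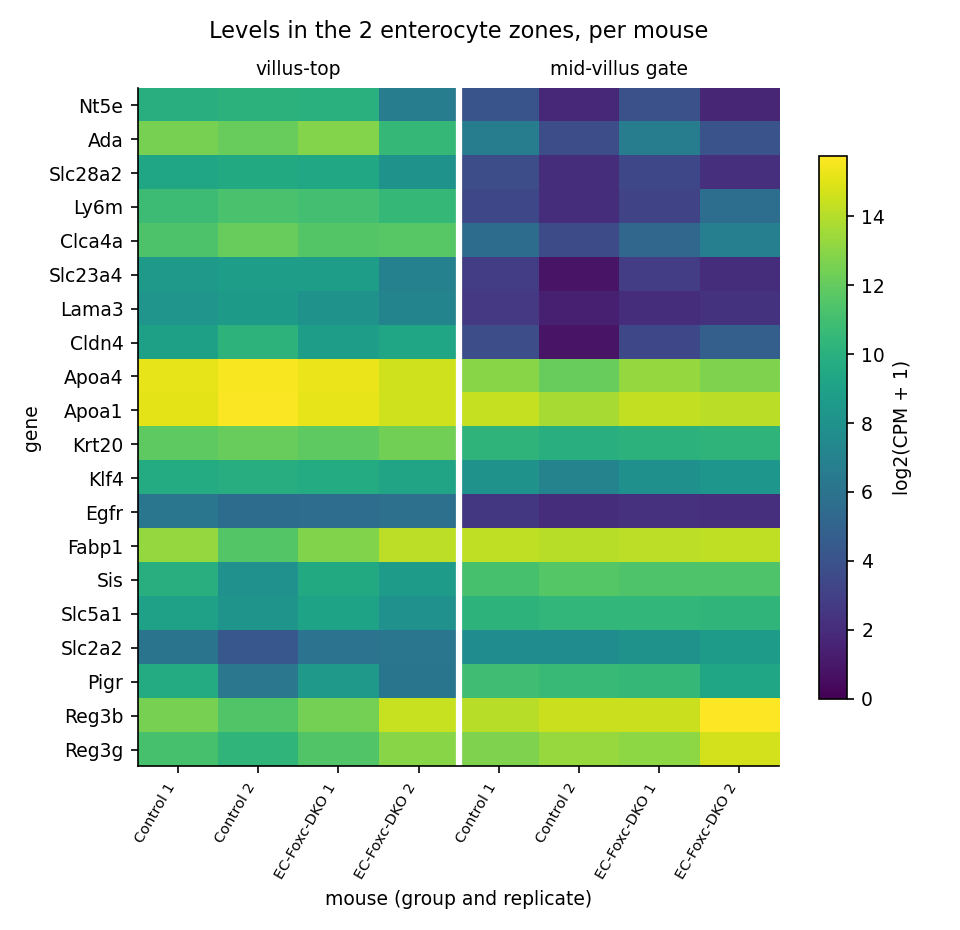
Levels as log2(CPM + 1) of 20 genes (rows) in villus-top members and the mid-villus gate (columns, 1 per mouse). Rule genes, Lama3 and Cldn4 were high in the members, and Reg3b, Reg3g, Sis, Slc5a1 and Slc2a2 were higher in mid-villus cells of the same mouse.

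Levels were also listed within the members by how many of the 6 rule genes a cell held. The same counts chose the members, so these values describe them and are no separate check of position. From members with 3 to members with 6 rule genes, Apoa4 went from 13628 to 54614 CPM in control replicate 1, from 23879 to 55109 CPM in EC-Foxc-DKO replicate 1 and from 19033 to 35534 CPM in EC-Foxc-DKO replicate 2. Sis went from 1854 to 225 CPM, from 1602 to 306 CPM and from 524 to 165 CPM in the same mice. In all 3 mice Apoa4 was higher and Sis lower with 6 than with 3 rule genes. Fabp1 went from 14544 to 5211 CPM and from 10976 to 3717 CPM in control replicate 1 and EC-Foxc-DKO replicate 1, but from 21089 to 16964 CPM in EC-Foxc-DKO replicate 2. Members with 6 rule genes were not deeper than those with 3 in control replicate 1, with a median of 14877 against 27170.0 UMIs per cell, nor in EC-Foxc-DKO replicate 1, with 15185.5 against 20852 UMIs, whereas in EC-Foxc-DKO replicate 2 the medians were 27036 and 21326 UMIs.

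**Figure D3:**
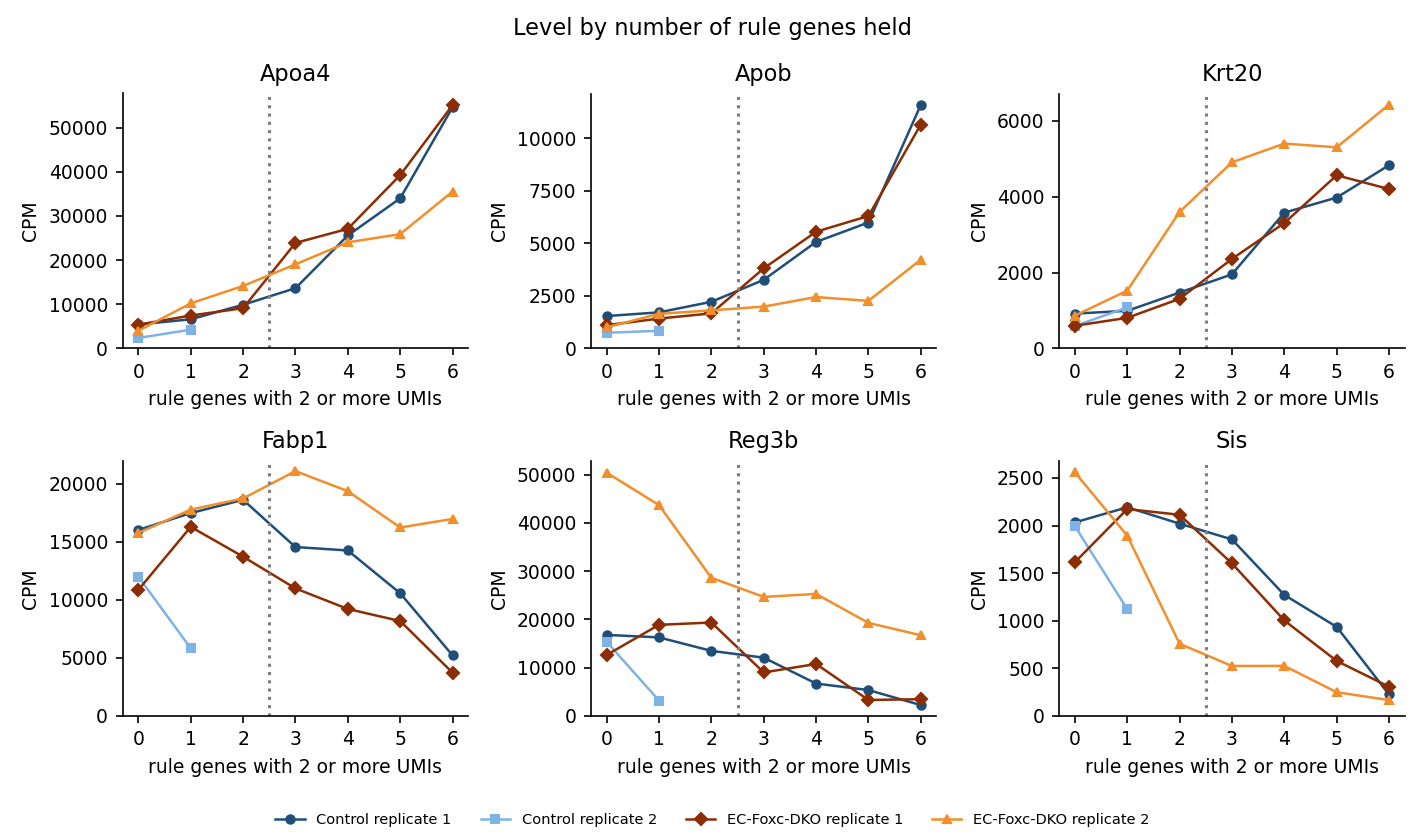
Level in CPM (linear axis from 0) of 6 genes in Epcam-positive, non-cycling kept cells against the number of rule genes with 2 or more UMIs, 1 line per mouse; points are sums over at least 10 cells, and the dotted line marks the rule, with members to its right. Apoa4, Apob and Krt20 increased and Reg3b and Sis decreased towards 6 rule genes, and EC-Foxc-DKO replicate 2 lay above the other mice in Krt20 and Reg3b among the members.

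The members of EC-Foxc-DKO replicate 2 differed from those of the other 3 mice in several groups of genes. This is a difference of 1 mouse, without a test, and the genes named for it were chosen after their values were seen. Of the 9060 genes that passed the filter on low counts, EC-Foxc-DKO replicate 2 had the highest TMM-normalized level of the 4 mice for 35.7% and the lowest for 22.1%. By these TMM-normalized levels it was highest for 25 of 27 genes of hypoxia and glycolysis and lowest for 0. Plain CPM, given below for single genes, can order the mice differently, as for Vegfa. Pgk1, which encodes phosphoglycerate kinase, stood at 529.6, 392, 459.8 and 1843 CPM, Ldha, which encodes a lactate dehydrogenase subunit, at 1583, 1091, 1274 and 3276 CPM, and Gapdh at 1898, 1445, 1890.0 and 4115 CPM. The glucose transporter Slc2a1 stood at 18.7, 0, 18.8 and 118 CPM and the hypoxia-responsive gene Bnip3 at 43.2, 0, 37.5 and 196 CPM, whereas Vegfa, another hypoxia target, stood at 98.5, 121, 102 and 91.7 CPM. In mid-villus cells Pgk1 stood at 280.4, 277, 272 and 481 CPM and Slc2a1 at 1.09, 0, 1.17 and 7.60 CPM.

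It was also highest for 18 of 25 tested injury-state and repair genes. Sprr2a3, a small proline-rich protein gene, stood at 259.9, 65.3, 267 and 2311 CPM, Gml2 at 62.8, 28.0, 52.1 and 538 CPM and the calcium-binding protein gene S100a6 at 3066, 2089, 2786 and 8400.0 CPM. Lgals3, the galectin-3 gene, stood at 2031, 1958, 1716 and 5819 CPM and S100a10 at 2818, 3562, 2944 and 4589 CPM. Clu, which encodes clusterin, went the other way, with 217, 1595, 226 and 64.5 CPM and its highest value in the 7 members of control replicate 2. Of 23 antioxidant genes EC-Foxc-DKO replicate 2 was highest for 16, with Gpx2, a glutathione peroxidase of the gut epithelium, at 78.7, 0, 68.9 and 587 CPM, Gclc at 29.9, 28.0, 26.04 and 276 CPM and Nqo1 at 5.88, 9.33, 6.81 and 93.0 CPM. The glutathione transferase genes Gsta1, Gsta4 and Gstm3 stood at 115, 0, 136 and 2443 CPM, 42.3, 0, 47.3 and 599.7 CPM and 68.3, 0, 39.3 and 471 CPM and were, together with Gpx2, Zg16, Clca1, Ly6d, 2210407C18Rik, Nts and Pyy, the 10 genes with the largest range over mice. In all 10 the lowest value belonged to control replicate 2, which held no UMI of 9 of them and 18.7 CPM of Zg16.

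Reg3b and Reg3g, given above, were highest in EC-Foxc-DKO replicate 2 in both zones. Lcn2, the antibacterial lipocalin, stood at 2.08, 0, 8.21 and 109 CPM in the members and at 0.831, 48.4, 6.64 and 557 CPM in mid-villus cells. Of 23 tested apolipoprotein and chylomicron genes, EC-Foxc-DKO replicate 2 was highest for 14 and lowest for 8. Apoc2, an activator of lipoprotein lipase, stood at 5875, 8319, 6926 and 8744 CPM, whereas Apoa4, Apoa1 and Apob, given above, were lowest there. Selenop, which encodes a selenium transport protein, stood at 7085, 11974, 8110.3 and 1649 CPM and was lowest in that mouse, as were Enpp3 and Dnpep. Brush border hydrolases summed to 9811, 8347, 10042 and 5105 CPM, with 0 of 19 genes highest and 13 lowest in EC-Foxc-DKO replicate 2, and interferon and antigen presentation genes to 9899.9, 13279.9, 9100.0 and 5446 CPM, with 2 of 29 highest and 15 lowest. B2m, the light chain of class I molecules, stood at 1931, 2779, 1762 and 683 CPM and H2-K1 at 2112, 2938, 2039 and 1279 CPM. The ileal bile acid binding protein gene Fabp6 stood at 0, 0, 0.200 and 21.7 CPM in the members and at 0.320, 1.61, 14.1 and 285 CPM in mid-villus cells, so that the libraries also differed in a marker of position along the gut, whose part in these differences was not tested.

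**Figure D4:**
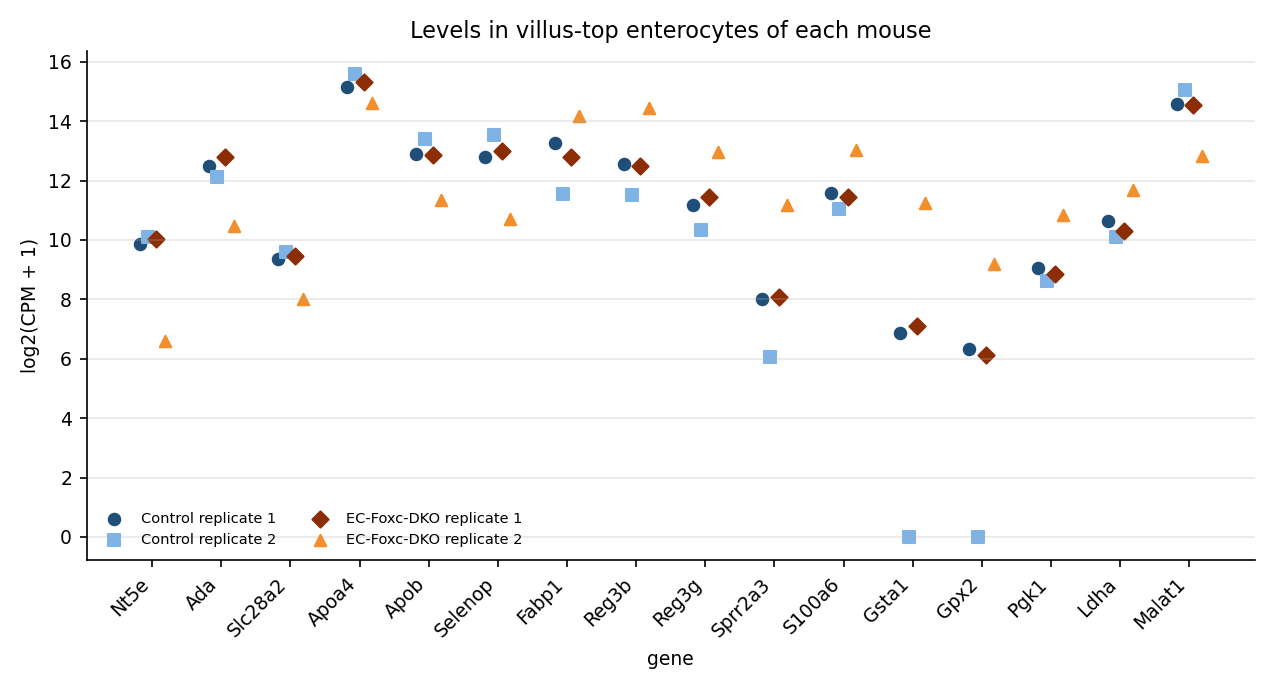
Level as log2(CPM + 1) of 16 genes in the villus-top enterocytes of each mouse, 1 symbol per mouse. EC-Foxc-DKO replicate 2 lay below the other mice in Nt5e, Ada, Slc28a2, Apoa4, Apob, Selenop and Malat1 and above them in the remaining 9 genes, and control replicate 2 lay at 0 for Gsta1 and Gpx2.

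The difference was recomputed in other sets of members, chosen after the data were seen. As log2(CPM + 1), Selenop in EC-Foxc-DKO replicate 2 differed from the mean of the other 3 mice by -2.42 (SD of the 3 mice 0.39), and the difference was -1.87 among members with all 6 rule genes, -2.08 at a mitochondrial limit of 20% and -2.54 without members that held markers of another type. Pgk1 was above the mean of the others by 2.01 (SD 0.22), and by 2.13, 2.48 and 1.98 in those sets. Reg3b was above by 2.25 (SD 0.59), and by 2.75, 2.62 and 1.99. Other genes moved more: S100a6 went from 1.68 to 1.02 and Fabp1 from 1.66 to 2.99 with all 6 rule genes. Gpx2 went from 5.05 to 2.84 at the limit of 20%, a move within the SD of the other 3 mice (3.59). Control replicate 2 held no Gpx2 UMI in the reported members, so the 5.05 depends on the added count of 1 CPM. Of 48 recomputed differences of the 16 genes plotted, 11 moved by more than the SD of the other 3 mice. At the limit of 20%, which gave 1284, 47, 868 and 285 members, Sprr2a3 stood at 162, 189, 160.3 and 2006 CPM and Gpx2 at 58.6, 167, 40.3 and 532 CPM. None of these sets changed the side on which EC-Foxc-DKO replicate 2 lay for any of the 16 genes plotted, of which Nt5e, Ada and Slc28a2 also served to choose the members.

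Genotypes were compared on UMIs summed per mouse with edgeR's quasi-likelihood test. Of 9060 genes tested, 0 passed an adjusted p of 0.05 in either direction (0.0%), and the lowest adjusted p was 0.114. At an unadjusted p of 0.05, 176 genes passed (1.94%), of which 163 (1.8%) were higher and 13 (0.143%) were lower in EC-Foxc-DKO mice, and the median log2 fold change over all genes was 0.07. By TMM-normalized levels, zeros included, both EC-Foxc-DKO mice lay above both controls for 1691 genes (18.7%) and below both for 884 (9.76%). DESeq2 called 2 genes, Spink4 and Ccl5, both higher in EC-Foxc-DKO mice. The biological coefficient of variation between mice of a group was 0.390, so that a count of 0 does not show that levels did not differ. Leaving out 1 mouse moved the count: 346 genes were called without EC-Foxc-DKO replicate 2 and 527 without EC-Foxc-DKO replicate 1, and 0 without control replicate 1 or control replicate 2, each time on the assumption that a group with 1 mouse left has the spread of the remaining pair.

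The 10 genes with the lowest p among those with higher estimates were Ccl5, Spink4, Gzma, Defa24, Lyz1, Retnlb, Klk1, Ifitm3, Agr2 and Psca. Ccl5, a chemokine of cytotoxic lymphocytes, stood at 2.62, 0, 50.1 and 40.4 CPM (log2 fold change 4.33, SE 0.64, adjusted p = 0.114). Spink4, a goblet cell peptide gene, stood at 25.5, 0, 322 and 269 CPM (log2 fold change 4.03, SE 0.64, adjusted p = 0.115). Gzma, which encodes the granule protease granzyme A, stood at 3.26, 0, 45.1 and 27.6 CPM (log2 fold change 3.70, SE 0.64, adjusted p = 0.166), and Defa24, a Paneth cell defensin, at 10.2, 0, 74.5 and 265 CPM (log2 fold change 4.46, SE 0.79, adjusted p = 0.166). All 4 genes were listed at 0 in control replicate 2, where a count of 3 UMIs corresponded to 28.0 CPM. Both EC-Foxc-DKO mice lay above that level and above control replicate 1 for Ccl5, Spink4 and Defa24, whereas Gzma in EC-Foxc-DKO replicate 2 lay just under it. The summed goblet and Paneth markers given above were also higher in both EC-Foxc-DKO mice than in both controls, and the summed T cell markers were higher than in control replicate 1 but under the 28.0 CPM of control replicate 2. Their part in these genes was not tested. UMIs came from few cells: Ccl5 was seen in 68 members and Defa24 in 74, with 27.4% and 40.5% of their UMIs in 1 cell, and Lyz1 and Retnlb had 68.8% and 87.4% of theirs in 1 cell. Without members that held markers of another cell type, the lowest adjusted p over all genes was 1.00. The estimates were then 1.89 for Ccl5, 1.11 for Spink4, which is itself among those markers, and 0.98 for Gzma. Without the cells with the highest Scrublet scores they were 1.94 for Ccl5, 4.07 for Spink4, 1.40 for Gzma and 4.41 for Defa24. At a mitochondrial limit of 20% the estimates turned to -1.31 for Ccl5, -3.02 for Gzma, -3.01 for Defa24 and -2.10 for Lyz1. Without control replicate 1 they were 10.17 for Ccl5, 12.88 for Spink4, 9.84 for Gzma and 12.15 for Defa24, where the remaining control held no UMI of these genes and a fitted value is no bound.

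The 10 genes with the lowest p among those with lower estimates were Cck, Scg2, Wfdc17, Clu, Slc17a5, Adck5, Neurl1b, Bmp2, Eci3 and Scoc. Cck, the cholecystokinin gene of enteroendocrine cells, stood at 461, 0, 5.81 and 5.47 CPM (log2 fold change -5.33, SE 1.06, adjusted p = 0.391), and 86.3% of its UMIs came from 1 cell. Slc17a5, a lysosomal sialic acid exporter, was seen in 362 members and stood at 51.6, 177, 37.3 and 6.84 CPM (log2 fold change -1.98, SE 0.73, adjusted p = 1.00). Bmp2, a bone morphogenetic protein, stood at 56.1, 149, 41.9 and 10.5 CPM (log2 fold change -1.61, SE 0.64, adjusted p = 1.00), and Eci3, an enoyl-CoA isomerase, at 29.0, 28.0, 15.025 and 4.10 CPM (log2 fold change -1.44, SE 0.61, adjusted p = 1.00). For Slc17a5, Bmp2 and Eci3 both EC-Foxc-DKO mice lay below both controls, with EC-Foxc-DKO replicate 2 the lowest, and EC-Foxc-DKO replicate 1 was nearer in ratio to control replicate 1 than to EC-Foxc-DKO replicate 2. For Eci3 the level of control replicate 2 rests on 3 UMIs in 7 cells. With 1 mouse left out the estimates ranged from -3.39 to -1.12 for Slc17a5, from -2.68 to -0.92 for Bmp2 and from -2.54 to -0.87 for Eci3, the lowest each time without EC-Foxc-DKO replicate 1.

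No list held a gene that passed the threshold. Counts of genes above or below both controls use TMM-normalized levels, which can order the mice differently from the plain CPM printed here. Read against the 18.7% of all genes for which both EC-Foxc-DKO mice lay above both controls and the 9.76% for which both lay below, the hypoxia and glycolysis list had 11 of 27 above and 0 below, with a median log2 fold change of 1.09. Its summed level was 7223, 5456, 6543 and 15886 CPM. The injury-state list had 7 of 25 above and 1 below, a median of 1.22 and a sum of 13988, 12786, 12277 and 33876 CPM. The antimicrobial list had 6 of 17 above and 0 below, a median of 1.23 and a sum of 13128, 5735, 12022 and 35201 CPM. In these 3 lists the sum of EC-Foxc-DKO replicate 1 was below that of control replicate 1, and that of EC-Foxc-DKO replicate 2 was the highest. An unadjusted p under 0.05 was reached with higher estimates by 1.8% and with lower ones by 0.143% of all genes. At that level 11 hypoxia and glycolysis, 11 injury-state, 7 antimicrobial, 6 antioxidant, 5 heat shock and 5 xenobiotic genes had higher estimates. Acadl of the fat oxidation list and Krt18 of the enterocyte identity list were among the further list genes that did. Lower estimates at that level were found for Clu of the injury-state list and Bmp2 of the transcription factor and BMP list. Cck of the enteroendocrine list and 1 gene of the myeloid list also had them. These single genes are named after their values were seen. Heat shock genes had 10 of 16 above and 0 below, a median of 0.75 and a sum of 1708, 1306, 1994 and 3078 CPM, in which EC-Foxc-DKO replicate 1 also exceeded both controls. Hsp90ab1, which encodes a constitutive chaperone, stood at 245, 159, 364 and 532 CPM and the inducible Hspa1b at 4.88, 0, 7.61 and 112 CPM. Endoplasmic reticulum stress genes had 9 of 21 above and 1 below, with a median of 0.43 and a sum of 1739, 1082, 1699 and 1950.2 CPM.

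The other lists of enterocyte function had medians between -0.27 and 0.55. Apolipoprotein genes had a median of 0.29 with 5 of 23 above and 1 below, purine genes other than the rule genes 0.12 with 4 of 20 above and 2 below, brush border hydrolases -0.13 with 1 of 19 above and 1 below, transporters -0.17 with 1 of 17 above and 1 below, and structure and adhesion genes -0.15 with 1 of 27 above and 4 below. Interferon genes had a median of -0.27 with 1 of 29 above and 4 below, immediate early genes 0.00 with 3 of 21 above and 2 below, transcription factors 0.01 with 3 of 26 above and 3 below, and cell death genes 0.08 with 3 of 27 above and 5 below. Antioxidant genes had a median of 0.55 with 4 of 23 above and 0 below, xenobiotic enzymes 0.02 with 7 of 30 above and 2 below, retinoid genes 0.36 with 4 of 11 above and 0 below, bile acid, sterol and iron genes 0.20 with 3 of 19 above and 3 below, and fat oxidation genes 0.16 with 3 of 17 above and 1 below. Cdkn1a, the cell cycle inhibitor p21, was the most abundant gene of the death list at 455, 364, 471 and 952 CPM, followed by Mcl1 at 453, 317, 470.2 and 375 CPM and the pore-forming gasdermin gene Gsdmd at 396, 382, 378 and 306 CPM. Fth1, the ferritin heavy chain, led the iron genes at 4914, 2826, 4120.5 and 10567 CPM, and Cyp3a13 led the xenobiotic enzymes at 1349, 2658, 1554 and 1579 CPM. Of the goblet genes, all 7 had an unadjusted p under 0.05 with higher estimates, with a median of 2.88. Medians of the Paneth, T cell, pan-leukocyte and myeloid lists were 4.46, 3.87, 3.15 and 2.00 over 3, 2, 2 and 5 tested genes. Those of the enteroendocrine and tuft lists were -0.087 and -0.344 over 6 and 5 tested genes. Outside control replicate 2 most UMIs of the 7 goblet genes lay in the few goblet-rich members described above.

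**Figure D5:**
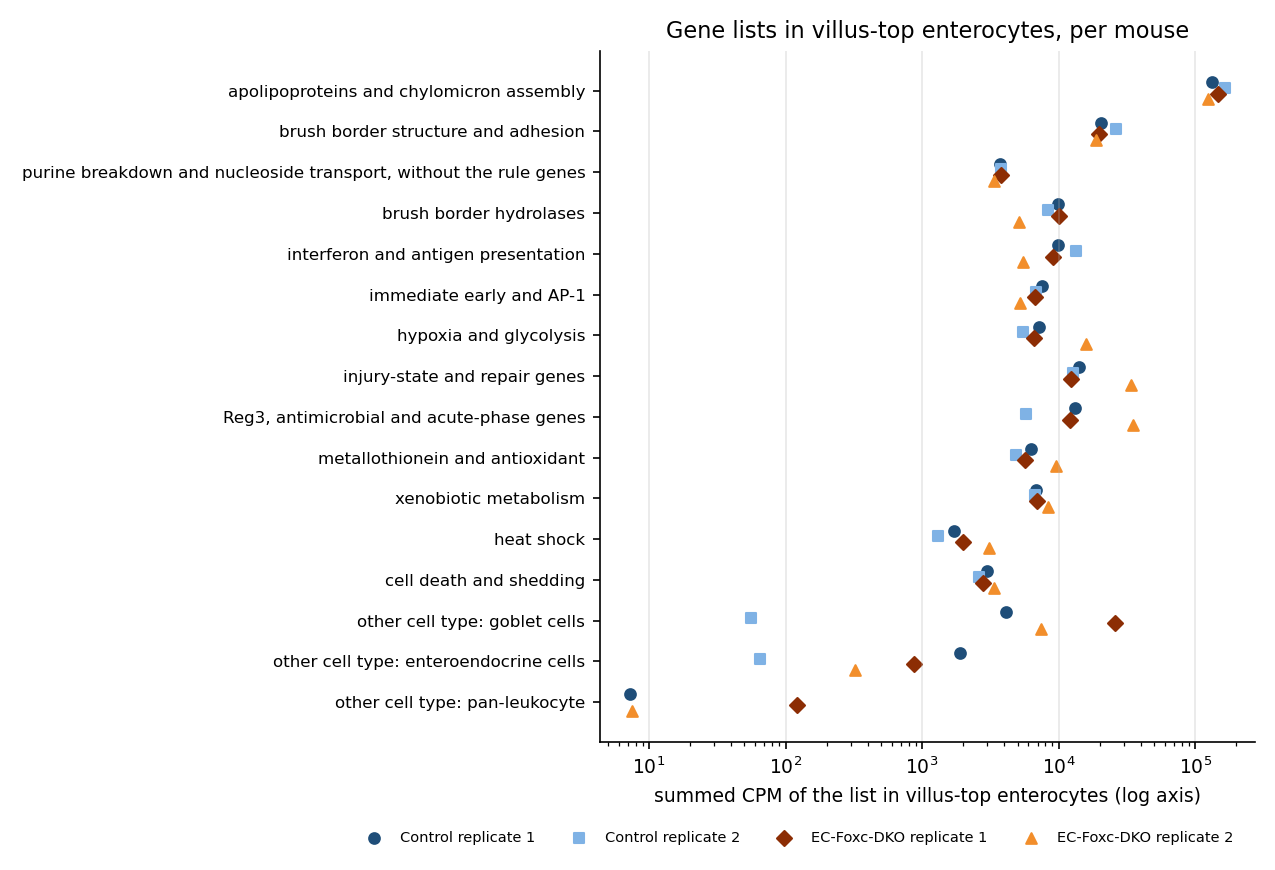
Summed CPM of 16 gene lists in the villus-top enterocytes of each mouse, on a log axis, 1 symbol per mouse, with the rule genes left out of the purine list; control replicate 2 had no pan-leukocyte UMI and is not drawn there. EC-Foxc-DKO replicate 2 lay to the right of the other mice for hypoxia and glycolysis, injury-state and Reg3 genes and to the left for hydrolase genes, and the lists of other cell types spread most between mice.

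In mid-villus cells the genotype contrast called 0 of 10316 genes, so neither zone had a called difference by itself. Whether the contrast differed between the zones was tested as an interaction of zone and genotype. The mouse was a covariate in edgeR's quasi-likelihood test. Of 10630 genes tested, 13 passed an adjusted p of 0.05 (0.122%), of which 8 (0.0753%) had a more positive and 5 (0.047%) a more negative difference in the members than in mid-villus cells. The 5 with the lowest p were Pyy, Afp, Cck, Reg4 and S100a9. Pyy and Cck are gut hormone genes of enteroendocrine cells, Reg4 is expressed in secretory cells, and S100a9 is a neutrophil gene. Pyy had 9288, 0, 2 and 1 UMIs in the members and S100a9 863, 0, 2 and 230, and 59.8% and 62.6% of their UMIs came from 1 cell. Afp had 8, 0, 189 and 16 UMIs, with 87.8% in 1 cell. Of the 13 genes, 6 had over 50% of the members' UMIs in 1 cell. Without the cells of either zone that held markers of another cell type 0 genes passed, with a lowest adjusted p of 0.805. In that fit 255 genes had an unadjusted p under 0.05. The marker lists used for this filter include 6 of the 13 genes, so for these the filter itself removes their UMIs and their loss decides nothing. Leaving out control replicate 1 gave 0 calls, control replicate 2 gave 8 and EC-Foxc-DKO replicate 2 gave 33. The interaction thus called no gene of the enterocyte lists other than Reg1, a Reg family gene of the antimicrobial list, at 8.86, 65.3, 48.5 and 107 CPM in the members and 49.7, 103, 51.1 and 104 CPM in mid-villus cells, with an interaction of 2.24 (SE 0.45, edgeR adjusted p = 0.0118). The call on Reg1 was lost without EC-Foxc-DKO replicate 1 (adjusted p = 0.277), without EC-Foxc-DKO replicate 2 (adjusted p = 0.161) and without control replicate 1, where the estimate was 1.10 (adjusted p = 0.602), and also with 4 rule genes, at a mitochondrial limit of 20% and without cells that held markers of another type.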

How the data were processed

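Single-cell 3′ RNA libraries of 4 mouse distal jejuna (2 mice per group) were analysed. The deposited counts are UMIs per gene and barcode, which the authors made with Cell Ranger 4.0.0 (per the submitters' processing notes) on mm10 with a Cre sequence added. Barcodes are those that Cell Ranger called as cells. A joined count table of 18407 genes served only for an alternative mitochondrial share. UMIs of the members were summed per mouse. Genes passing filterByExpr were scaled by TMM and tested in edgeR 4.0.16 with the quasi-likelihood test, with Benjamini-Hochberg adjustment over all genes tested and a threshold of 0.05. DESeq2 1.42.0 was an alternative. Scrublet (scanpy 1.11.5) scored doublets, which were kept. Fits were tested on simulated data. Members and lists were chosen with earlier results of these data known. Genes named are the rule genes, the 10 most abundant, the 10 of lowest p in each direction where fewer than 10 passed, the 3 most abundant of each list, the 10 most different between zones in each direction, the 10 of largest range over mice and the genes of the interaction. Others were named after their values were seen. Each library is from a separate mouse.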

Additional observations from a re-analysis of the deposited data

Results flagged for a closer look

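The difference between genotypes differed between the villus top and the mid-villus gate for 13 genes by the interaction test. Relative to mid-villus cells, the log2 difference of EC-Foxc-DKO less control in villus-top enterocytes was -13.08 for Pyy, 7.76 for Afp, -8.56 for Cck, 3.93 for Reg4 and -5.64 for S100a9. It was -8.00 for S100a8, 3.60 for Spink4, 4.46 for Igha, 3.21 for Tph1 and 4.13 for Jchain. For Wfdc17, Reg1 and Iglc2 it was -6.15, 2.24 and 5.56. Of the 13 genes, 6 stand in a list of markers of another cell type, and 6 had over 50% of the members' UMIs in 1 cell. Fitted values of genes with 0 UMIs in a library depend on the prior count and are no bounds.

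Above the mitochondrial limit, 4448 barcodes met the other terms of the rule, compared with 877 below it, and they were used only in the alternatives with a higher limit or none.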

How the results depend on the processing

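The genotype contrast, with 0 calls as reported, gave 2 calls with DESeq2, 4 without TMM, 102 without the filter on low genes, 10 at a mitochondrial limit of 5% (46, 0, 29 and 43 members, so that control replicate 2 dropped out and the spread came from the EC-Foxc-DKO mice alone, and was taken to hold for control replicate 1), 2 with the mitochondrial share over the genes of the joined table, 45 with members thinned to 5000 UMIs, and 0 to 527 when 1 mouse was left out. Equal replicate numbers mark separate mice and did not deviate together (r = -0.210 over 2474 genes of at least 50 mean CPM). A replicate block on these numbers gave 30 calls, and the crossed pairing, added after seeing the data, gave 85. The 13 calls of the interaction became 0 at a mitochondrial limit of 20%, 0 without cells holding markers of another type, and 0 to 33 when 1 mouse was left out. The difference in share ranged from -17.3 to 10.2 points with 1 mouse left out, and was -7.45 at a limit of 20% and 3.88 at 5%.

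Of the alternatives for single genes of the genotype contrast, 250 kept direction and side of the threshold, 91 passed it in the same direction and 13 turned. At a limit of 20% Ccl5 was -1.31, Gzma -3.02, Defa24 -3.01 and Lyz1 -2.10. With 2 rule genes Ccl5 was -2.61, Gzma -4.18 and Cck 0.22, and with 4 rule genes Cck was 2.21. At a limit of 5%, with control replicate 1 the only control, Agr2 was -0.12, Clu 1.28 and Eci3 0.86, and without control replicate 1 Cck and Scg2 turned. Of those of the interaction, 58 kept both, 40 lost the threshold and 9 turned. Without cells holding other markers S100a9 was 1.06 and Igha -0.016, and at 20% Tph1 was -0.089. Without EC-Foxc-DKO replicate 1 Iglc2 turned, and without control replicate 1 Cck, S100a9, S100a8, Jchain and Wfdc17 turned. With 1 mouse left out, Cck ranged from -6.18 to 7.18 and Scg2 from -6.30 to 5.43 in the genotype contrast, and in the interaction Cck ranged from -9.88 to 1.14, S100a9 from -6.87 to 6.74, S100a8 from -9.48 to 1.01, Jchain from -1.63 to 5.85, Wfdc17 from -6.47 to 0.81 and Iglc2 from -0.27 to 5.88. The cause was not tested.

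Depth limits control replicate 2 most, where 7 members make 3 UMIs worth 28.0 CPM. With 2 mice per group no exact test of a single value can reach 0.05.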
